A study of Homo sapiens with 6 samples.

Results

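The 10 genes described here are transcriptional outputs and brakes of the ERK pathway, namely DUSP4, DUSP5, DUSP6, SPRY2, SPRY4, SPRED1, SPRED2, ETV4, ETV5 and PHLDA1. They were chosen by name, as known members of this group, at a time when earlier results of these data were known. Each of the 10 symbols matched 1 of the 20332 genes in the count table. The cells were Huh-7, an established line of human hepatocellular carcinoma. The 3 negative control samples carry the genotype label WT, and the 3 samples titled RAC3 came from cells made with a lentivirus to overexpress RAC3, a small GTPase, stably. In the genotype field, however, sample 2 of this group reads RAC4 overexpression and sample 3 reads RAC5 overexpression. All 3 were grouped by their titles, and RAC3 stood at 232.6, 239.6 and 225.4 TMM-normalized CPM (counts relative to library size, scaled between libraries) in them against 35.6, 31.4 and 32.8 in the controls. Whether the stable cells are 1 clone or a pool, and what vector the controls carry, is not stated in the sources used here.

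ERK signalling runs from growth factor receptors through RAS, RAF and MEK to the kinase ERK. Active ERK switches on genes that turn the pathway down again. Dual specificity phosphatases (DUSP) remove the activating phosphates from ERK, while Sprouty (SPRY) and SPRED proteins act further upstream, at the step from receptor to RAS and RAF. The PEA3 factors ETV4 and ETV5 carry the response on as transcription factors. In many tumours the RNA of these genes is read as a gauge of ERK pathway output.

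Total counts per sample lay between 13855762 and 18199888. All 12 hepatocyte markers examined, among them ALB and AFP, were detected in both groups, with summed levels of 3767 to 3853.4 FPKM (reads relative to transcript length and library size, as the authors computed them) in the controls and 3393.6 to 3780.2 with RAC3 overexpression. Of 10 markers of other cell types, PTPRC, CD3E, VWF and CDH5 had at most 9 counts in any sample. The summed level of that list was 71.3 to 76.3 FPKM in the controls and 82.6 to 89.0 FPKM with RAC3 overexpression, most of it from LUM at 53.1 to 71.2 FPKM, and none of the 10 was at 0 in every sample of a group. Of this list 6 could be tested by edgeR, with LUM and CD68 higher (adjusted p = 0.00291 and 0.0418) and COL1A1 lower (adjusted p = 0.0242). Of the 12 hepatocyte markers 3 were higher and 5 lower at an adjusted p below 0.05. AFP, APOB and FGB rose by 0.16, 0.20 and 0.30 on the log2 scale. TF and APOA2 fell most, by 0.56 and 0.58. Of all genes tested, 13.3% were higher and 15.3% lower, against which the counts of both lists can be read. The part of these lists in the results was not tested. The study's methods call the 3 RNA samples of each group independent. Neither those methods nor the labels say whether these came from separate cultures. The p-values judge the difference between the groups against the spread between these samples, which may be technical.

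With RAC3 overexpression, PHLDA1 and DUSP4 rose, ETV4, SPRY4 and SPRED1 fell, and DUSP5, DUSP6, SPRY2, SPRED2 and ETV5 did not pass the test. All 10 genes passed the filter on low counts, and 5 of the 10 had an adjusted p-value below 0.05 in the quasi-likelihood test of edgeR (Benjamini-Hochberg adjustment over all genes tested), against 28.5% of the 12941 genes tested. In each direction this was 2 of the 10 higher, against 13.3% of all genes, and 3 of the 10 lower, against 15.3%. The study used a fold change above 1.5 in either direction with an unadjusted p-value below 0.05. At these thresholds 0 of the 10 were called by edgeR, against 4.68% of all genes. Of all genes 1.68% were called higher and 2.99% lower. Among the genes called, 36.0% were higher, or 48.4% with scaling by library size alone. DESeq2 also called 0 at these thresholds. The 3 RAC3 samples did not overlap the 3 controls for 6 of the 10, against 42.5% of all genes. Of these, 2 lay higher, against 20.9% of all genes, and 4 lower, against 21.6%. The median log2 fold change of the 10 was -0.05, and the median size of a change was 0.21, against 0.16 over all genes tested.

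**Figure D1:**
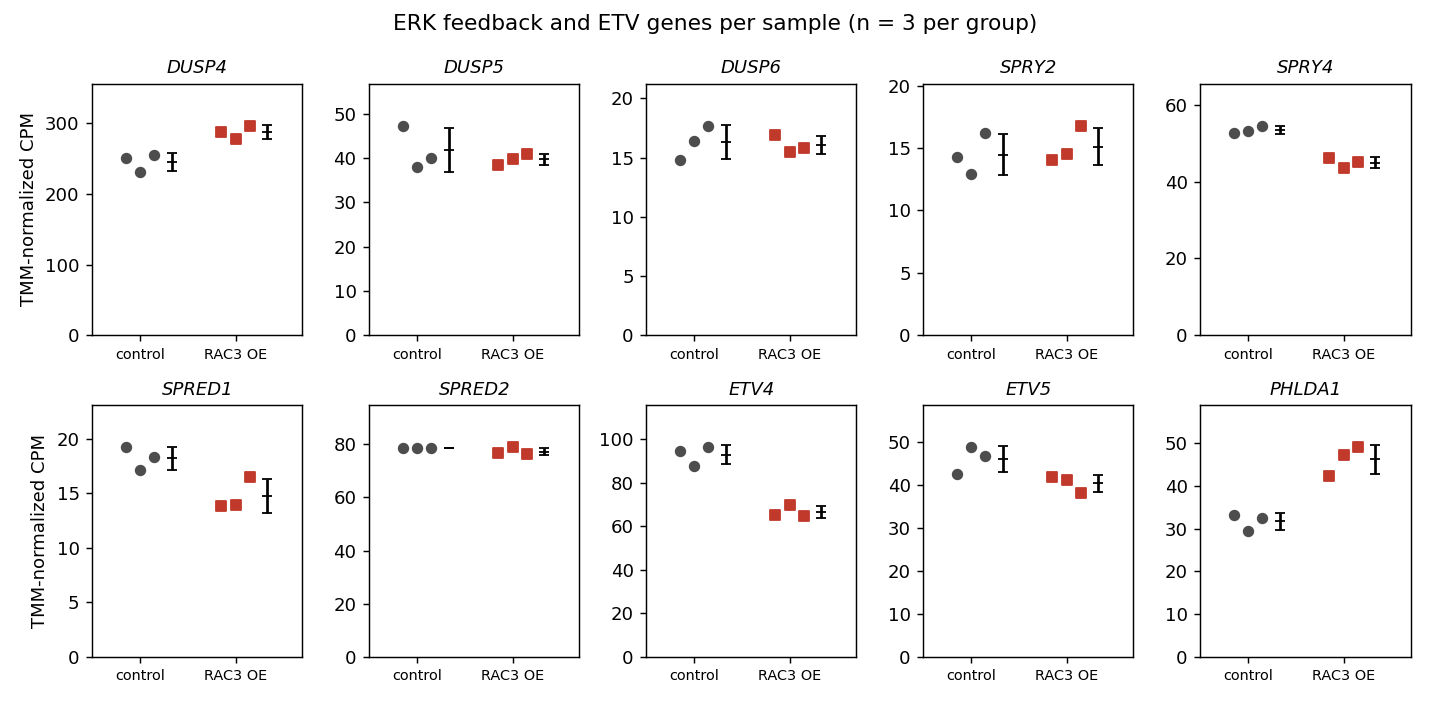
TMM-normalized CPM of each gene in the 3 negative control samples (circles) and the 3 RAC3 overexpression samples (squares), with the mean and SD of each group beside them and each vertical axis starting at 0. PHLDA1 and DUSP4 lay higher in all RAC3 samples, ETV4, ETV5, SPRY4 and SPRED1 lower, and DUSP5, DUSP6, SPRY2 and SPRED2 overlapped.

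Promoter sequences were matched in the RefSeq table (GRCh38.p14) for 6 of the 10 genes, DUSP6, SPRY2, SPRY4, SPRED1, SPRED2 and PHLDA1. The 250 bases before 1 annotated start per gene were searched on both strands, and other starts were not searched. For DUSP6, SPRY4, SPRED1 and PHLDA1 this window lay inside the gene positions given below. The motifs were the ETS core CCGGAA, which PEA3 factors can bind, TGAATGA for CIC, a repressor that ERK signalling relieves, and TGANTCA for AP-1. Only these letters were searched, and variants of them were not. These letters occur in 14.5%, 3.35% and 6.57% of the 35116 promoters of the table. The 3 promoters below are shown because each holds 1 match, in capitals. A match is a description of the letters only. DUSP6 has the CIC motif from 133 bases before the start. SPRY2 has the ETS core from 142 bases before the start, and PHLDA1 has it on the other strand, read as TTCCGG, from 89 bases before the start. No match to these 3 motifs was present in the windows of SPRY4, SPRED1 and SPRED2.
DUSP6 (chr12:89352502-89352751, minus strand): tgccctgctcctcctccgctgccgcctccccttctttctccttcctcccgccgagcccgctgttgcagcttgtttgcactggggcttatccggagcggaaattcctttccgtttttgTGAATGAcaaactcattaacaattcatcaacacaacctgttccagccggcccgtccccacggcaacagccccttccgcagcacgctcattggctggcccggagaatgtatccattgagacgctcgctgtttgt
SPRY2 (chr13:80341127-80341376, minus strand): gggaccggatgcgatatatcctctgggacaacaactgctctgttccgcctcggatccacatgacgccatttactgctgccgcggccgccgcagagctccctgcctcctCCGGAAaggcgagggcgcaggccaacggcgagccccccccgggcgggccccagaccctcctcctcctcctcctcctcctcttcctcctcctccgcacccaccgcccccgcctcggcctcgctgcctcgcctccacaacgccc
PHLDA1 (chr12:76031777-76032026, minus strand): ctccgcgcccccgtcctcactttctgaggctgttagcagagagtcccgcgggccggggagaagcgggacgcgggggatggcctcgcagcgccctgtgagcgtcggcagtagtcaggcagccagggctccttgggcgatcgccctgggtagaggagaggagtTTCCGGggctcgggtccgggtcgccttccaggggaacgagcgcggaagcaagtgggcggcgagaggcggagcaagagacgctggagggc

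Among the dual specificity phosphatases, the change of DUSP4 passed the test, and those of DUSP5 and DUSP6 did not. DUSP4 (ENSG00000120875, GRCh38 chromosome 8 from 29333064 to 29350668), a nuclear phosphatase of ERK and related kinases, had 250.7, 231.1 and 254.8 CPM in the controls and 287.8, 278.2 and 297.0 CPM in the RAC3 samples. Every RAC3 sample lay above every control. On the log2 scale DUSP4 rose by 0.23 (standard error 0.0461, 95% interval 0.13 to 0.32, adjusted p = 0.00111 by edgeR), a rise of 17.1%.

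DUSP6 (ENSG00000139318, chromosome 12 from 89347232 to 89353271) encodes the cytoplasmic phosphatase that is most selective for ERK, and its RNA is widely used to read the pathway. It had 14.8, 16.4 and 17.7 CPM in the controls and 16.9, 15.5 and 15.8 CPM with RAC3 overexpression, and the RAC3 values lay inside the range of the controls. Its promoter is the one shown above with the CIC motif. On the log2 scale DUSP6 differed by -0.03 (standard error 0.102, adjusted p = 0.878 by edgeR), and the 95% interval of the fold change, 0.848 to 1.14, leaves out a change of 1.5-fold either way but not smaller ones. DUSP5 (ENSG00000138166, chromosome 10 from 110497838 to 110511544), an inducible nuclear phosphatase of ERK, had 47.3, 38.0 and 39.9 CPM in the controls. It had 38.4, 39.7 and 40.9 CPM in the RAC3 samples. The negative control 1 stood highest and the other samples lay close together, with a log2 fold change of -0.07 (95% interval -0.23 to 0.09, adjusted p = 0.543 by edgeR).

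Among the inhibitors that act near the receptor and RAS, SPRY4 and SPRED1 fell and their relatives did not pass the test. SPRY4 (ENSG00000187678, chromosome 5 from 142310427 to 142326455) had 52.8, 53.3 and 54.7 CPM in the controls and 46.2, 43.5 and 45.3 CPM with RAC3 overexpression. The groups were well apart, and the change of -0.25 on the log2 scale (standard error 0.0616, adjusted p = 0.00453 by edgeR) is a fold of 0.839. With limma on the authors' FPKM values it was -0.19 and the adjusted p was 0.119, the highest of 17 alternatives, the lowest being 0.00224. SPRY2 (ENSG00000136158, chromosome 13 from 80335976 to 80340951), the other Sprouty gene of the set, had 14.3, 12.9 and 16.2 CPM in the controls. With RAC3 overexpression it had 14.0, 14.5 and 16.8 CPM. The ranges overlap between 14.0 and 16.2 CPM. The 95% interval of the SPRY2 fold change was 0.879 to 1.23 (adjusted p = 0.766 by edgeR), from 193 to 290 counts per sample.

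SPRED1 (ENSG00000166068, chromosome 15 from 38252326 to 38357249), which recruits the RAS inactivator neurofibromin to the membrane, had 19.2, 17.1 and 18.3 CPM in the controls. The RAC3 samples had 13.8, 13.9 and 16.5 CPM. The RAC3 sample 3 lay near the lowest control, and the groups did not overlap. SPRED1 fell by 0.31 on the log2 scale (standard error 0.104, adjusted p = 0.0305 by edgeR). This is the least secure of the 5 calls. Its adjusted p was 0.0888 without negative control replicate 1, 0.0648 without negative control replicate 3, 0.112 without RAC3 overexpression replicate 1, 0.0918 without RAC3 overexpression replicate 2 and 0.0637 with DESeq2, within a range of 0.00364 to 0.281 over 17 alternatives. SPRED2 (ENSG00000198369, chromosome 2 from 65310851 to 65432637) showed the smallest spread of the set, with 78.7, 78.6 and 78.6 CPM in the controls and 76.7, 78.9 and 76.2 CPM in the RAC3 samples. Its fold change had a 95% interval of 0.910 to 1.06 (adjusted p = 0.773 by edgeR).

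ETV4 and ETV5 were lower in all 3 RAC3 samples than in all 3 controls, and the change of ETV4 passed the test. ETV1, the other PEA3 factor and not among the 10, had 28.8 ± 1.56 CPM in the controls and 29.4 ± 1.29 CPM with RAC3 overexpression (SD, n = 3 per group, adjusted p = 0.779 by edgeR), and its groups overlapped. ETV4 (ENSG00000175832, chromosome 17 from 43527844 to 43579620) had 94.5, 88.0 and 96.4 CPM in the controls and 65.4, 70.0 and 64.8 CPM with RAC3 overexpression. This was the largest fall among the 10 genes, at -0.48 on the log2 scale (standard error 0.0578, 95% interval -0.60 to -0.36, adjusted p = 6.9e-06 by edgeR), or a fold of 0.718. ETV4 shares exon sequence with DHX8 on the opposite strand, whose level was 58.3 ± 1.84 CPM in the controls and 61.6 ± 1.06 CPM with RAC3 overexpression (SD, n = 3 per group; adjusted p = 0.348 by edgeR). The longest ETV4 transcript has 60.8% G and C, the highest of the 10 genes, and SPRED1 has 38.9%, the lowest. After the dependence on GC content had been taken out of every library, ETV4 differed by -0.31 on the log2 scale (adjusted p = 3.1e-04 by edgeR) and SPRED1 by -0.46 (adjusted p = 0.00364 by edgeR). Over the 17 alternatives the adjusted p of ETV4 was between 5.5e-11 and 0.00551.

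ETV5 (ENSG00000244405, chromosome 3 from 186046308 to 186110318) had 42.6, 48.7 and 46.6 CPM in the controls and 41.8, 41.2 and 38.0 CPM with RAC3 overexpression. The highest RAC3 sample and the lowest control differed by less than the spread within either group. The difference was -0.19 on the log2 scale (standard error 0.0702, adjusted p = 0.0519 by edgeR), just outside the threshold, and its adjusted p over the 17 alternatives ran from 0.0204, without negative control replicate 1, to 0.796, with limma on FPKM. ETV5 overlaps DGKG on the same strand, and DGKG had between 0 and 2 counts per sample.

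PHLDA1 (ENSG00000139289, chromosome 12 from 76025447 to 76033932), a pleckstrin homology domain protein often used as an ERK output gene, showed the largest change of the set. It had 33.1, 29.4 and 32.5 CPM in the controls and 42.4, 47.1 and 49.0 CPM with RAC3 overexpression. The lowest RAC3 sample stood well above the highest control. PHLDA1 rose by 0.54 on the log2 scale (standard error 0.0753, 95% interval 0.38 to 0.70, adjusted p = 3.0e-05 by edgeR), a fold of 1.46. The study's fold threshold is 0.58 on the log2 scale, and PHLDA1 passed it with scaling by library size alone (0.60), with limma on FPKM (0.59) and without RAC3 overexpression replicate 1 (0.60). DUSP6 and PHLDA1 overlap annotated antisense genes in exons, and whether the counting used strand is not given in the sources used here.

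**Figure D2:**
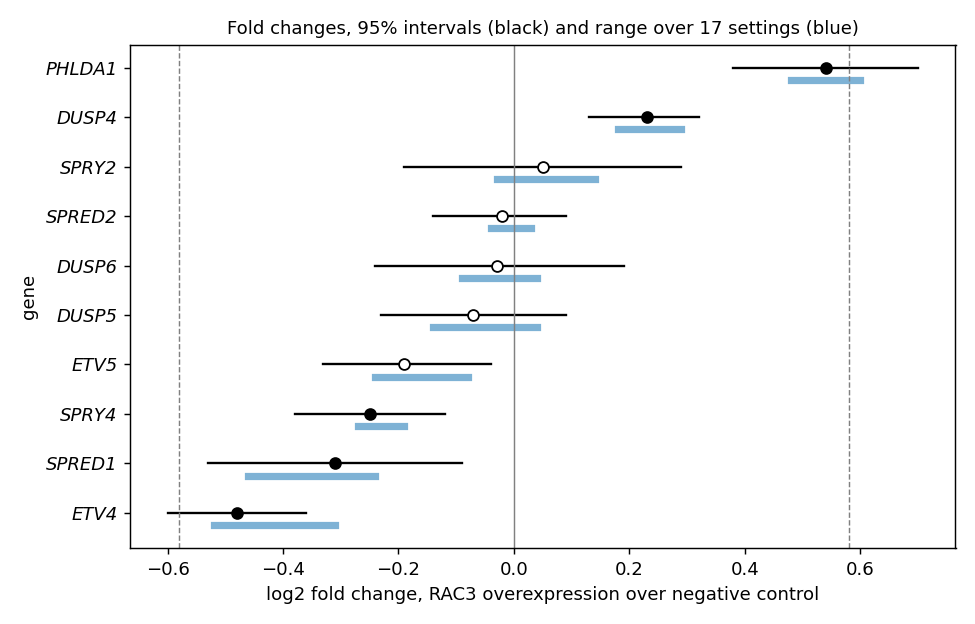
Log2 fold change of RAC3 overexpression over negative control for each gene (circles, filled where the adjusted p is below 0.05), with its 95% interval in black, the range over the 17 alternative settings in blue, and dashed lines at a fold change of 1.5. PHLDA1 lay between 0.48 and 0.60 and ETV4 between -0.52 and -0.31 in every setting, while the ranges of DUSP5, DUSP6, SPRY2 and SPRED2 crossed 0.

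The ratio of 2 genes within a sample does not depend on how libraries were scaled, so related genes were also compared in this way. The log2 ratio of SPRY4 to SPRY2 was 1.88, 2.04 and 1.75 in the controls and 1.72, 1.58 and 1.42 in the RAC3 samples. It was lower in all RAC3 samples, by 0.32 on average. The log2 ratio of ETV5 to ETV4 was -1.15, -0.85 and -1.05 in the controls and -0.64, -0.76 and -0.77 in the RAC3 samples, a difference of 0.29. For SPRED2 to SPRED1 the ratio was 2.03, 2.19 and 2.10 against 2.47, 2.49 and 2.20, a difference of 0.28. In these pairs the groups did not overlap in CPM. A ratio does not remove an effect of GC content, in which the genes of a pair can differ. With the GC trend removed, ETV4 differed by -0.31 and ETV5 by -0.19 on the log2 scale, nearer each other than before. SPRED1 then differed by -0.46 and SPRED2 by -0.02, further apart than before. In the authors' FPKM the groups overlapped for the ratio of ETV5 to ETV4.
The log2 ratio of DUSP6 to DUSP4 was -4.07, -3.80 and -3.84 in the controls and -4.08, -4.16 and -4.22 in the RAC3 samples, lower by 0.25 with only a small gap between the groups. That of DUSP6 to DUSP5 lay at -1.34 ± 0.278 in the controls and -1.30 ± 0.104 in the RAC3 samples (SD, n = 3 per group), and the groups overlapped. An exact permutation test, two-sided, gave p = 0.10 for the 4 pairs without overlap, which is the smallest that 3 samples against 3 allow, and p = 0.90 for DUSP6 to DUSP5. Adjusted over the 5 pairs by Benjamini-Hochberg, the exact p-values were 0.125 for those 4 pairs and 0.90 for the last.

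**Figure D3:**
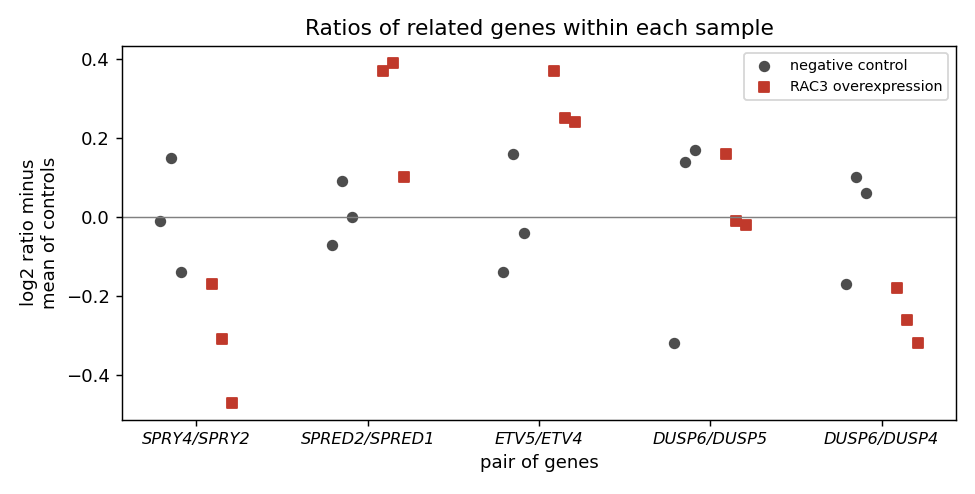
Log2 ratio of related genes within each sample, after subtraction of the mean of the 3 controls for that pair, with controls as circles and RAC3 overexpression as squares. The RAC3 samples lie below the controls for SPRY4/SPRY2 and DUSP6/DUSP4, above them for SPRED2/SPRED1 and ETV5/ETV4, and among them for DUSP6/DUSP5.

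Levels of different genes can be compared only per length, for which the authors' FPKM values were used. In the controls, DUSP4 (43.3 ± 2.19 FPKM) and ETV4 (43.2 ± 2.67 FPKM; SD, n = 3) led the set and overlapped each other. SPRED2, DUSP5, ETV5 and SPRY4 followed, at 19.4, 16.5, 12.7 and 10.7 FPKM, each overlapping the next. DUSP6, SPRY2 and PHLDA1 lay lower, at 7.11, 6.17 and 5.36 FPKM, again with overlap between neighbours, and SPRED1 was lowest at 2.45 ± 0.127 FPKM (SD, n = 3). With RAC3 overexpression DUSP4 stood alone at the top, at 52.9 ± 1.86 FPKM, and ETV4 was second at 32.6 ± 1.49 FPKM (SD, n = 3). PHLDA1 moved from the ninth place to the seventh, at 8.12 ± 0.513 FPKM (SD, n = 3), where its range overlapped that of DUSP6. SPRED1 remained lowest at 2.06 FPKM.

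**Figure D4:**
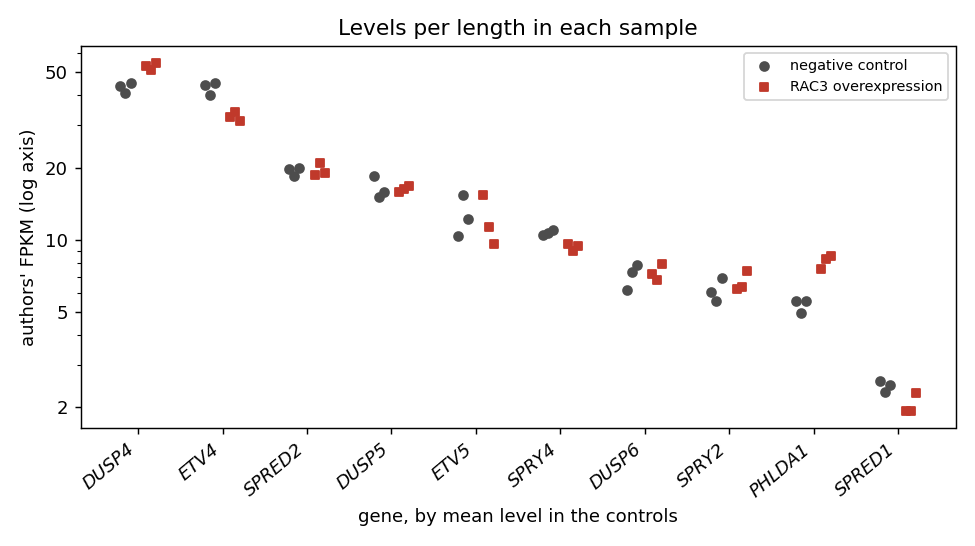
The authors' FPKM of each gene in every sample, on a log axis, ordered by the mean of the controls, with negative controls as circles and RAC3 overexpression as squares. DUSP4 and ETV4 share the top in the controls at about 43.3 and 43.2 FPKM and separate with RAC3 overexpression, and SPRED1 is lowest in both groups.

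The rest of the pathway was described with 6 lists, and each held genes that rose and genes that fell. Their counts can be read against the 13.3% of all genes that were higher and the 15.3% that were lower, and with the GC trend removed the number of all genes called fell from 3691 to 2678. Among other phosphatases of MAP kinases, 8 of 11 could be tested, with 2 higher, 3 lower and 3 not past the test at an adjusted p of 0.05 by edgeR. PTPRR, a tyrosine phosphatase that binds ERK, rose and stood at 0.355 ± 0.0820 CPM in the controls and 1.33 ± 0.131 CPM with RAC3 overexpression (SD, n = 3 per group), on 4 to 8 counts against 20 to 23. DUSP9, another cytoplasmic ERK phosphatase, fell from 455.9 ± 38.4 to 375.4 ± 18.1 CPM (SD, n = 3 per group, adjusted p = 5.6e-04 by edgeR). DUSP7, which also acts on ERK, fell by 0.49 on the log2 scale. DUSP16 and DUSP8, which act mainly on the related kinases JNK and p38, differed by 0.18 (higher) and -0.30 (lower). With the GC trend removed, 1 of the list was higher and 1 lower, and leaving out 1 library at a time gave 1 to 3 higher.
Of 12 other inhibitors of RAS and of receptors that could be tested, RASAL2 was higher (log2 fold change 0.26) and DAB2IP and CBL were lower (-0.40 and -0.22), and 9 did not pass. RASAL2 and DAB2IP encode proteins that switch RAS off, and CBL tags active receptors for degradation. With the GC trend removed 0 of this list were higher and 2 lower, and with limma on FPKM 0 were lower.

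Of 13 genes for other ETS factors and CIC, GABPA and ELK4 were higher (log2 fold changes 0.36 and 0.31) and ERF and ELK1 lower (-0.29 and -0.25), and 9 did not pass. ERF is an ETS repressor that ERK exports from the nucleus. CIC itself had 123.1 ± 6.78 CPM in the controls and 113.1 ± 5.76 CPM with RAC3 overexpression (SD, n = 3 per group, adjusted p = 0.103 by edgeR). With the GC trend removed, 0 of this list were higher and 0 lower by edgeR.

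Of 15 other output genes of ERK that were tested, MYC and TRIB1 were higher (log2 fold changes 0.46 and 0.26), 5 were lower and 8 did not pass. CCND1, the cyclin that ERK activity sustains in the G1 phase, fell from 431.1 ± 11.1 to 301.5 ± 13.0 CPM (SD, n = 3 per group, adjusted p = 7.1e-08 by edgeR). IER3, JUNB and EPHA2 fell by 0.56, 0.57 and 0.35 on the log2 scale. EPHA4 had at most 2 counts in a sample and was not tested. The median of this list was -0.14. With the GC trend removed it was -0.01, and still 2 of the list were higher and 5 lower by edgeR.
In the core of the pathway, 5 of 16 tested genes were higher (13.3% of all genes), 3 lower (15.3% of all genes) and 8 did not pass, and with the GC trend removed, when fewer of all genes were called (2678 in place of 3691), 2 were higher. MAPK3, which encodes an ERK kinase, fell from 72.3 ± 3.91 to 52.5 ± 1.40 CPM (SD, n = 3 per group, adjusted p = 1.7e-05 by edgeR). NRAS and SHOC2 were higher, by 0.19 and 0.30 on the log2 scale. MAP2K2 and the scaffold KSR1 fell by 0.28 and 0.79.
Among receptors, ligands and adaptors, 5 of 22 tested genes were higher and 6 lower, against 13.3% and 15.3% of all genes. EREG, AREG, SOS1 and FRS2 were higher, with log2 fold changes of 0.80, 0.59, 0.56 and 0.43, while FGFR4, ERBB2, FGFR3 and ERBB3 fell by 0.41, 0.45, 0.27 and 0.27. EGFR stood at 282.3 ± 14.4 CPM in the controls and 288.2 ± 9.54 CPM with RAC3 overexpression (SD, n = 3 per group, adjusted p = 0.656 by edgeR). With the GC trend removed, 5 of this list were higher and 4 lower by edgeR.

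**Figure D5:**
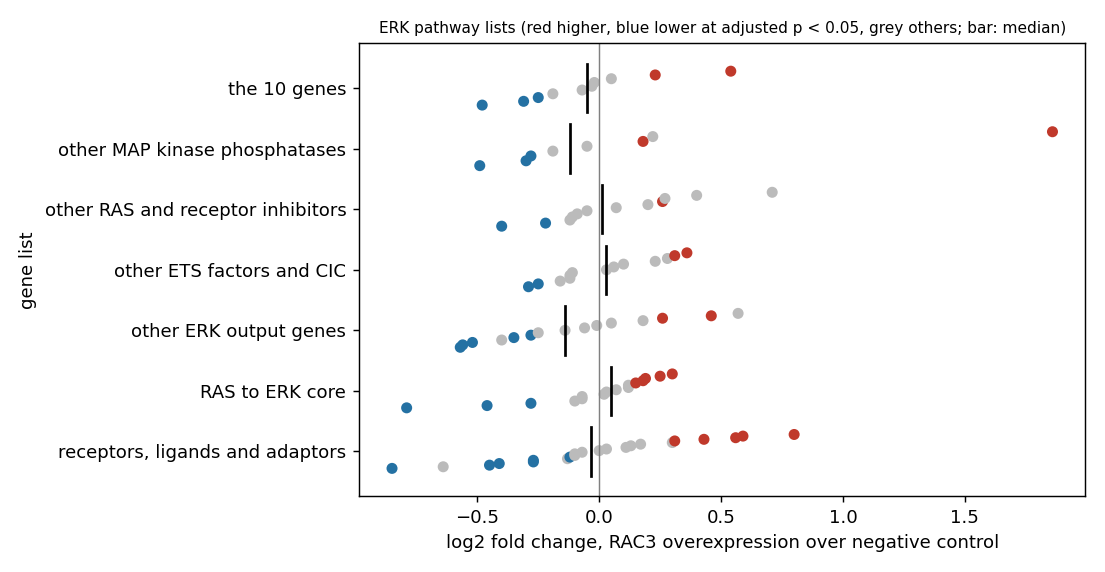
Log2 fold change of every tested gene in the set of 10 and in 6 other lists of the ERK pathway, red where higher and blue where lower at an adjusted p below 0.05, grey otherwise, with a bar at the list's median. Each list holds genes of both colours, and the medians lie between -0.14 and 0.05.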

How the data were processed

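Polyadenylated RNA of 6 Huh-7 samples was sequenced on an Illumina NovaSeq instrument. The authors deposited 1 table with unnormalized counts, FPKM and group means of FPKM, and these means were not used. Their processing notes name HISAT2, StringTie 1.3.1, Bowtie2 2.2.8 and DESeq2. The genome build is not given in the sources used here, and gene positions and GC content (longest transcript, 99.4% of tested genes) are from GENCODE 29 on GRCh38.

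The main test on the counts was the two-sided quasi-likelihood F test of edgeR 4.0.16 (R 4.3.3) after filterByExpr, which kept 12941 genes, and TMM scaling. It had no covariate, and p-values were adjusted over all those genes by Benjamini-Hochberg. Alternatives were other scalings and filters, DESeq2 1.42.0, limma 3.58.1 (voom, and log2(FPKM + 0.1)), a term for the replicate number, removal of GC or length trends (lowess span 0.3) and leaving out each sample. Scripts were tested on simulated data. Named genes were the 10 members, RAC3, in each list at most 4 per direction by smallest p-value with an adjusted p below 0.05, and 8 genes fixed by name. Some of the named genes are not reported here. The members and lists were chosen with earlier results of these data known. Depth was 13855762 to 18199888 counts per sample, and members had 193 to 5114 counts, so counting error is largest for SPRY2.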

Additional observations from a re-analysis of the deposited data

How the results depend on the processing

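The results were recomputed under 17 alternatives, 6 of which left out 1 sample. DUSP4, ETV4 and PHLDA1 kept their direction and their call in all 17, SPRY4 in 16 and SPRED1 in 10. ETV5 passed the threshold in 5. The direction of DUSP5, DUSP6, SPRY2 and SPRED2 turned in some, and none of these values was called. The cause of these shifts was not tested. Depth limits SPRY2, DUSP6 and SPRED1 most, and with 3 samples per group no exact test can go below 0.10.

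With scaling by library size alone, which moved the median of all genes by 0.06, 48.4% of the genes past the study's thresholds were higher (36.0% in the reported analysis), 1 of the 10 genes passed those thresholds and their median was 0.01. DUSP6 was at 0.03, SPRED2 at 0.03 and SPRED1 at -0.25 (adjusted p = 0.0691 by edgeR). The other RAS and receptor inhibitors had 2 higher, 1 lower and a median of 0.07, and the medians were 0.09 for the ETS list and 0.11 for the core. With DESeq2, SPRED1 was at -0.31 (adjusted p = 0.0637). With only genes at 0 counts removed, the inhibitors had 2 higher and a median of 0.07, and ETV5 passed at -0.19. With at least 10 counts in every sample, 1 of the other MAP kinase phosphatases was higher, the inhibitors had a median of -0.05, and ETV5 passed at -0.19.

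With the GC trend removed, the other phosphatases had 1 higher, 1 lower and a median of -0.04, and the inhibitors had 0 higher. By edgeR the ETS list had 0 higher and 0 lower, and the core 2 higher. The outputs had a median of -0.01, with 2 higher and 5 lower as before. DUSP5 was at 0.04 and ETV5 passed at -0.19. With the length trend removed ETV5 passed at -0.20. With limma on log2(FPKM + 0.1), 2162 genes had an adjusted p below 0.05 (3691 in the reported analysis) and 49.1% of those past the study's thresholds were higher. Of the 10 genes, 1 was lower and 1 passed the study's thresholds, with a median of 0.00. SPRY4 was at -0.19, SPRED1 at -0.24, DUSP6 at 0.04 and SPRED2 at 0.01. The inhibitors had 0 lower by limma, and the medians were 0.10 for the ETS list, 0.08 for the core and 0.08 for the receptors.

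Leaving out 1 sample at a time gave log2 fold changes of -0.39 to -0.27 for SPRED1, -0.24 to -0.15 for ETV5, -0.14 to 0.02 for DUSP5 (above 0 without negative control replicate 1), -0.09 to 0.03 for DUSP6 (0.03 without negative control replicate 3 and 0.00 without RAC3 overexpression replicate 2) and -0.03 to 0.14 for SPRY2 (-0.03 without negative control replicate 2 or RAC3 overexpression replicate 3). Between 0 and 1 of the 10 passed the study's thresholds, that 1 being PHLDA1 without RAC3 overexpression replicate 1. The phosphatases had 1 to 3 higher and medians of -0.18 to -0.03, the inhibitors 1 to 2 higher, 1 to 2 lower and medians of -0.08 to 0.11, the outputs 1 to 3 higher, and the core 3 to 4 higher and medians of 0.04 to 0.08.

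The labels number the samples 1 to 3 in both groups. Deviations of same-numbered samples from their group means correlated at -0.0936, -0.0492 and -0.0234 over 11221 genes. With means of only 3 samples, these correlations cannot settle whether same-numbered samples were handled together, and the labels do not say. With the replicate number as a block, every one of the 10 genes stayed on its side of the threshold, with SPRED1 at an adjusted p of 0.0418 by edgeR. The block left 3261 genes with an adjusted p below 0.05 in place of 3691, and 1 of the other phosphatases higher in place of 2.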

Other observations

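With 1 fixed length per gene, the ratio of FPKM to CPM of a gene would be the same in every sample, and among the 10 genes that of ETV5 varied most. The ratio of FPKM to CPM, relative to the median gene of each library, deviated from the ETV5 mean by -0.17, 0.18 and -0.09 on the log2 scale in the controls and by 0.34, -0.07 and -0.19 in the RAC3 samples. The range was 1.44-fold, and 6.76% of 11217 well-counted genes had a larger one. DUSP6 had a range of 1.19-fold and SPRED2 of 1.10-fold, while DUSP4, DUSP5, SPRY4 and SPRED1 had ranges of 0.01 on the log2 scale. The ETV5 level differed between samples more in FPKM (10.4, 15.4 and 12.2 in the controls, 15.4, 11.3 and 9.59 with RAC3 overexpression) than in CPM.

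Over the 6 samples, the log2 CPM of DUSP4 and PHLDA1 had a Pearson correlation of 0.947, that of SPRY4 and ETV4 of 0.933, and that of SPRY4 and PHLDA1 of -0.952. These share the difference between the groups and are given as a description. Among 11220 other well-counted genes, HSPD1, NNT, ARL15, DPH6 and HSF2 had profiles most like that of DUSP6, with correlations of 0.965 to 0.977 over 6 samples. They were picked as the highest of all 11220, and with 6 samples values this high can arise by chance. No link to DUSP6 was tested.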
